A study of Homo sapiens with 6 samples.

Results

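The transferrin receptor gene TFRC and the genes that reduce, carry, store, export and sense iron were examined in K562 cells with inducible ERG. The list held 10 genes, TFRC, TFR2, FTH1, FTL, SLC11A2, SLC40A1, SLC25A37, ACO1, IREB2 and STEAP3, and a member was every probe set to which the platform annotation gives 1 of these symbols and no other. In this way 8 genes were found, with 31 probe sets, of 19775 genes and 54613 probe sets in all. FTH1 and IREB2 were not analysed here, because the annotation used here pairs no probe set with them. The list was chosen by the measured log2 differences between the ERG-induced and non-induced arrays, so for the members these differences are given as a description, without a test.

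K562 is an established human line of erythroleukemia cells from a patient with chronic myeloid leukemia. The pTRE-ERG clones CL4, CL9 and CL46, 3 in number and stably transfected, each carried ERG under a doxycycline (DOX) responsive promoter, and each clone gave 1 array labelled ERG-induced, after 8 days with 1 µg/ml DOX, and 1 array labelled non-induced, from unstimulated cells of the same clone. The time is that of the sample labels, and a figure legend of the study gives a shorter one. The 2 groups thus held 3 Affymetrix U133 Plus 2.0 arrays each, with 1 array per clone and condition, and each SD is between clones. Each SE is that of the limma fit, which draws the variance of a gene or probe set toward a value shared by all. It can thus be wider than the spread of the arrays. All 3 clones come from 1 cell line. Since DOX was given to all induced cultures and to no others, what it does by itself and what ERG does cannot be told apart. Arrays are named throughout by their labels, as induced or non-induced.

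Cells take up iron mainly through the transferrin receptor TFRC, which carries iron-loaded transferrin into endosomes, where STEAP3 reduces the iron and SLC11A2 (DMT1) moves it into the cytosol. SLC25A37 (mitoferrin 1) brings iron into mitochondria for heme synthesis, ferritin, built of the chains FTH1 and FTL, stores it, and SLC40A1 (ferroportin) exports it. The regulatory proteins encoded by ACO1 and IREB2 sense iron and bind iron-responsive elements in messenger RNA. When iron is short they stabilize TFRC mRNA and hold back the translation of ferritin. Erythroid cells are known for very high TFRC, because hemoglobin takes most of the iron they import.

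The deposited values are ratios, and in most probe sets, all 31 of the members among them, the median over the 6 arrays is 1, while in some it is lower. They are given on the log2 scale, where 0 is thus the median of the arrays for each member probe set. Levels can therefore be compared between arrays and not between genes, and whether a gene or a marker of the erythroid lineage was detected at all cannot be read from them. ERG itself, as the mean of 4 probe sets, was lower by 0.76 (SE 0.63) in the arrays labelled ERG-induced, with single probe sets from -1.93 to 0.72. The groups overlapped, and whether any of these probe sets reads the introduced ERG is not known. ERG thus gave no check of the labels, on which each direction below rests. The megakaryocyte genes named below were picked as higher in the arrays labelled induced, so their values here are no check of the labels either. The study reports SELP, which is among them, as higher by PCR after induction, and shows this for CL9. On the CL9 arrays SELP was higher by 3.06 in the one labelled induced. The median log2 difference of all genes was -0.03, and it became 0.08 when arrays were centred on their medians and 0.11 after quantile normalization. In bulk RNA, fewer cells of a type and less RNA per cell cannot be told apart.

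TFRC, the receptor that brings transferrin-bound iron into the cell, was lower in the ERG-induced array of every clone. As the mean over its 5 probe sets, the log2 ratio was -0.98, -1.64 and -0.69 in the induced arrays of CL4, CL9 and CL46 and 0.55, 0.49 and 0.65 in the non-induced arrays. The groups did not overlap, and in this mean the non-induced arrays lay closer together (SD 0.08, n = 3) than the induced ones (SD 0.49, n = 3). The small SD comes from averaging uneven probe sets, as in single probe sets the non-induced SD lay between 0.24 and 0.58. In probe set 208691_at the non-induced arrays spread more than the induced ones (SD 0.29 against 0.22). The log2 difference was -1.67 (SE 0.32), 3.17-fold lower, and the single clones gave -1.53 (CL4), -2.13 (CL9) and -1.33 (CL46). Of all 19775 genes, 3.45% had a lower difference than TFRC.

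The region upstream of the TFRC transcription start is shown because ETS factors, the family to which ERG belongs, bind sites with the core letters GGAA. The 250 bases before the start (RefSeq, GRCh38.p14, chr3:196082091-196082340, minus strand, 5′ to 3′) hold GGAA 2 times, counted on both strands, and the longer letters GGAAGT once, in capitals, with their first base 78 bases before the start.
TFRC upstream region: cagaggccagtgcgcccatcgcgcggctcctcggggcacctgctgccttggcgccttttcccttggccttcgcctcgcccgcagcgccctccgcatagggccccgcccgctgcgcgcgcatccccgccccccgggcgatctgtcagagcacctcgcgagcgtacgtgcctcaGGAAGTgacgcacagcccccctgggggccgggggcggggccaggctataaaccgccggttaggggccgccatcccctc
Over the 35116 upstream regions of the same length in the table, 19.5% hold GGAAGT on either strand and 92.7% hold GGAA. The letters GGAAGT contain GGAA, so both counts share that match. The upstream regions of 6 measured members were searched, with TFR2 and SLC25A37 left out. Among these, ACO1 and FTL also hold GGAAGT, each once and on the opposite strand. It thus reads ACTTCC in their 2 windows below (10 bases either side, motif in capitals).
TFRC (chr3:196082153-196082178, minus strand): acgtgcctcaGGAAGTgacgcacagc
ACO1 (chr9:32384442-32384467, plus strand): cagccctcccACTTCCagcggaggag
FTL (chr19:48965127-48965152, plus strand): caggcgcgtgACTTCCccttgctttg
The upstream regions of SLC40A1, STEAP3 and SLC11A2 (4 start sites) do not hold GGAAGT. The shorter GGAA is found in SLC40A1 (1 time), ACO1 and FTL (2 times each) and at 3 of the 4 SLC11A2 starts, and not in STEAP3. A match of letters is no measure of binding.

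The 5 TFRC probe sets differed in how evenly the clones moved. The steadiest were 207332_s_at and 208691_at. Probe set 207332_s_at had log2 ratios of -0.61, -1.21 and -0.85 in the induced and 0.43, 0.88 and 0.50 in the non-induced arrays of CL4, CL9 and CL46, which made it 2.82-fold lower (SE 0.30 on the log2 scale). For 208691_at the values were -0.39, -0.81 and -0.71 against 0.31, 0.89 and 0.55, a difference of -1.22 (SE 0.30). In both, CL9 had the lowest induced and the highest non-induced array, and CL4 moved least.
The other probe sets spread more. Probe set 237214_at was -1.82, -0.13 and -1.56 in the induced arrays of CL4, CL9 and CL46 against 1.27, 0.12 and 0.79 (difference -1.90, SE 0.58), so that CL9 barely moved. In 240686_x_at the values were -1.98, -2.47 and -0.23 against 0.68, 0.20 and 0.56 (-2.04, SE 0.63), and CL46 moved least. Probe set 237215_s_at rested on CL9, with -0.09, -3.61 and -0.08 against 0.07, 0.36 and 0.82 (-1.67, SE 1.04). In all 5 probe sets each induced array lay below each non-induced array, which was so for 15.1% of all probe sets tested. These probe sets measure transcripts of 1 gene and are not independent, and the names ending in _x_at mark probe sets that may also bind other transcripts.

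**Figure D1:**
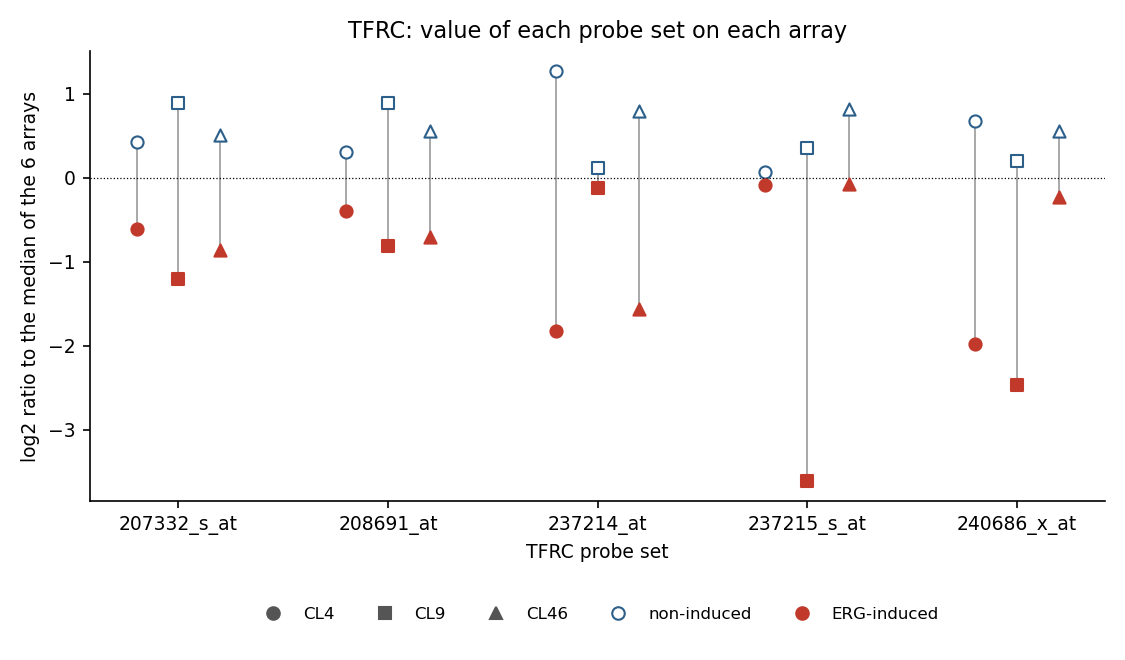
Log2 ratio of each of the 5 TFRC probe sets on each of the 6 arrays, relative to the median of the arrays. Open symbols are non-induced and filled symbols ERG-induced arrays, the shapes are the clones and grey lines join the arrays of a clone. All filled symbols lie below 0 and all open symbols above it, and 237215_s_at reaches -3.61 in CL9.

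Calls needed a difference of 2-fold or beyond and a limma p under 0.05 before adjustment. These are the thresholds of the study, which does not name its test. By this rule 5 member probe sets were lower and 0 higher, while 8.16% of all probe sets tested were lower and 2.82% higher. Since the contrast chose the list, nothing is read from this count. The 5 were the TFRC probe sets 207332_s_at, 208691_at, 237214_at and 240686_x_at and the SLC40A1 probe set 233123_at. With the clone as a block 3 remained, all of TFRC, and 2 were lower without CL9 or without CL46 and 3 without CL4. TFRC 207332_s_at was among those lower in each of these fits. By limma with adjustment over all probe sets, 0 member probe sets and 0 of all 54613 passed an adjusted p of 0.05, where 5 and 7180 had an unadjusted p under 0.05. Among all probe sets called, 74.3% were lower, and 63.1% after quantile normalization.

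Markers of other states were read on the same arrays, and their lists did not move alike. Of 8 proliferation genes, 2 fell at the study's thresholds, where 6.32% of all genes did, MKI67 (log2 difference -2.12, SE 0.45) and TOP2A (-1.73, SE 0.62), neither after adjustment in limma (adjusted p = 0.209 and 0.343). The mean log2 ratio of the 8 genes lay between -1.01 and -0.23 in the induced and between 0.13 and 0.37 in the non-induced arrays. It was lowest in the induced array of CL9, as was the gene mean of TFRC. The TFRC probe set 237214_at was not lowest there (-0.13 in CL9, -1.82 in CL4). Of 9 megakaryocyte genes measured, 3 rose at the same thresholds, ITGB3 (1.23), GP1BA (2.38) and SELP (3.76), where 3.12% of all genes did. None of them passed adjustment in limma (adjusted p = 0.321, 0.200 and 0.192), and the list's mean lay between -0.37 and 1.21 against -1.23 and -0.69. Of 10 erythroid genes measured, 0 rose and 0 fell in limma, and 2 had an unadjusted p under 0.05. These 2 went opposite ways, ALAS2 lower (-0.93, SE 0.29) and KLF1 higher (0.71, SE 0.26), each in all 3 clones. Neither passed adjustment in limma (adjusted p = 0.301 and 0.350). The list's mean, in which such differences offset, lay between -0.09 and 0.15 against -0.14 and 0.04. The genes of this list beyond these 10 were not analysed here. Of 10 monocyte and granulocyte genes, 0 rose and 0 fell (0 at an unadjusted p under 0.05), with means between -0.32 and 0.66 against -0.21 and -0.10. The array's ribosomal RNA controls (small subunit) were higher after induction in every clone, by 1.21 (CL4), 0.59 (CL9) and 0.82 (CL46). The part of these in the lower TFRC was not tested.

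TFR2, the second transferrin receptor, which takes part in iron sensing and in erythroid cells associates with the erythropoietin receptor, had no common direction among its 3 probe sets. Probe set 210215_at was higher in all 3 clones, by 0.33 in CL4, 0.56 in CL9 and 0.46 in CL46, while 215863_at was lower in all 3, by -0.93, -0.09 and -0.84 on the log2 scale. The remaining probe set, 207883_s_at, differed by 0.72, -0.98 and 0.11. The groups overlapped in each. The mean over the 3 was 0.03, -0.06 and 0.16 in the induced and -0.01, 0.11 and 0.24 in the non-induced arrays, a log2 difference of -0.07 (SE 0.23) that turned to 0.03 with each array centred on its median, to 0.09 after quantile normalization and to 0.05 with the median over probe sets. The 2 receptor genes thus had mean differences of -1.67 and -0.07 on these arrays.

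STEAP3, the reductase that prepares endosomal iron for transport, split by clone. Its mean over 2 probe sets was 0.41, -0.45 and 0.39 in the induced arrays of CL4, CL9 and CL46 and -0.38, -0.02 and -0.09 in the non-induced arrays. CL4 and CL46 were higher after induction and CL9 lower (0.79, 0.49 and -0.43), and the groups overlapped. Both probe sets had this order of signs, 1554830_a_at with 0.72, -0.75 and 0.57 and 218424_s_at with 0.86, -0.10 and 0.40. The log2 difference was 0.28 (SE 0.33), and it was 0.64 without CL9 and 0.03 without CL4.

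SLC11A2, the transporter that moves iron out of the endosome, had 5 probe sets with means from -0.36 to 0.68. The pair 203123_s_at and 203124_s_at was lower in all 3 clones, with differences of -0.36, -0.72 and -0.0033 in the former and -0.20, -0.68 and -0.16 in the latter. Probe sets 203125_x_at (0.63, 0.24 and 0.30) and 210047_at (0.09, 0.22 and 1.72) were higher in all 3, the latter mostly through CL46. Probe set 237106_at gave -0.27, 0.64 and 0.44. The gene is known to make transcripts with different ends, and no source used here tells which of them each probe set reads. The mean over the probe sets was -0.21, -0.19 and 0.56 in the induced and -0.19, -0.13 and 0.10 in the non-induced arrays, a log2 difference of 0.12 (SE 0.31), and -0.04 without CL46.

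SLC40A1, the only known exporter of iron from cells, stood next to TFRC. The mean over its 2 probe sets was -0.09, -0.75 and -0.44 in the induced arrays of CL4, CL9 and CL46 and 0.06, 0.49 and 0.39 in the non-induced arrays, without overlap. Of all single probe sets, 15.1% had the induced arrays below the non-induced ones, and the share over genes was not computed. It was lower by 0.15 in CL4, by 1.24 in CL9 and by 0.83 in CL46, and the mean log2 difference was -0.74 (SE 0.29). It reached the study's thresholds only when CL4 was left out (-1.03). Probe set 233123_at was -0.19, -1.23 and -0.87 against 0.17, 0.39 and 0.27 (difference -1.04, SE 0.36), a call lost with the clone as a block, without CL9 (-0.74), without CL46 (-0.99), and with each array centred (-0.93) or quantile normalized (-0.83). Probe set 223044_at differed by 0.05, -0.85 and -0.52, and its groups overlapped. In both TFRC and SLC40A1, CL9 moved most in the gene mean. For TFRC this was uneven over the probe sets. CL9 differed by -3.96 in 237215_s_at, which was not called, and by -0.24 in 237214_at, where it moved least.

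FTL, the light chain of ferritin, was nearly level. Its 2 probe sets, both with names ending in _x_at, had log2 ratios of 0.05, 0.11 and 0.02 in 212788_x_at and 0.01, 0.12 and 0.03 in 213187_x_at in the induced arrays of CL4, CL9 and CL46. The non-induced arrays had -0.13, -0.02 and -0.05 in the former and -0.22, -0.18 and -0.01 in the latter. Each induced array lay above each non-induced array in both, as in 7.14% of all probe sets, but the distances were small. The mean log2 difference was 0.16 (SE 0.22), 0.26 with each array centred and 0.30 after quantile normalization. The arrays of the gene mean spread less than this limma SE, with an SD of 0.05 in the induced and 0.08 in the non-induced group. Iron acts on ferritin mainly through translation, at the iron-responsive element near the start of the mRNA, and the FTL element is shown because arrays of RNA do not measure this step. Its loop letters CAGTG, in capitals, begin at base 39 of the transcript.
FTL iron-responsive element, loop (RefSeq, GRCh38.p14, chr19:48965334-48965358, plus strand): tctcttgcttcaaCAGTGtttggac

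ACO1, which encodes the iron sensor that is an aconitase when iron is ample and binds these elements when it is not, was higher in the mean of all 3 clones. The mean over its 2 probe sets was 0.28, -0.23 and 0.26 in the induced and -0.15, -0.31 and -0.04 in the non-induced arrays, and CL9 was low in both conditions. The differences were 0.43, 0.08 and 0.29 in CL4, CL9 and CL46, with a mean of 0.27 (SE 0.26). Probe set 207071_s_at had the induced arrays above the non-induced ones (0.14, 0.21 and 0.09 against -0.27, -0.34 and -0.10), as 7.14% of all probe sets had. Probe set 237622_at was lower by 0.39 in CL9 and higher in CL4 and CL46.

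SLC25A37, the mitochondrial iron importer of erythroid cells, was read by 10 probe sets, the most of any member. Their mean log2 differences ran from -0.71 (228527_s_at) to 0.42 (231078_at). Probe sets 228527_s_at and 218978_s_at were lower in all 3 clones, 222528_s_at and 222529_at, which carry the same accession, were higher in all 3 with means of 0.24 each, and the other 6 had clones on both sides of 0. In none of the 10 were the groups apart. The mean over the probe sets was -0.11, -0.23 and 0.20 in the induced and 0.02, -0.22 and 0.14 in the non-induced arrays. The clone means ran from -0.23 in CL9 to 0.17 in CL46, and the clones did not differ by the F test given below (adjusted p = 0.814). The log2 difference was -0.03 (SE 0.26), which turned to 0.08 with each array centred, to 0.12 after quantile normalization, to 0.10 without probe sets ending in _x_at or _s_at, to 0.03 with the median over probe sets and to 0.02 without CL4.

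**Figure D2:**
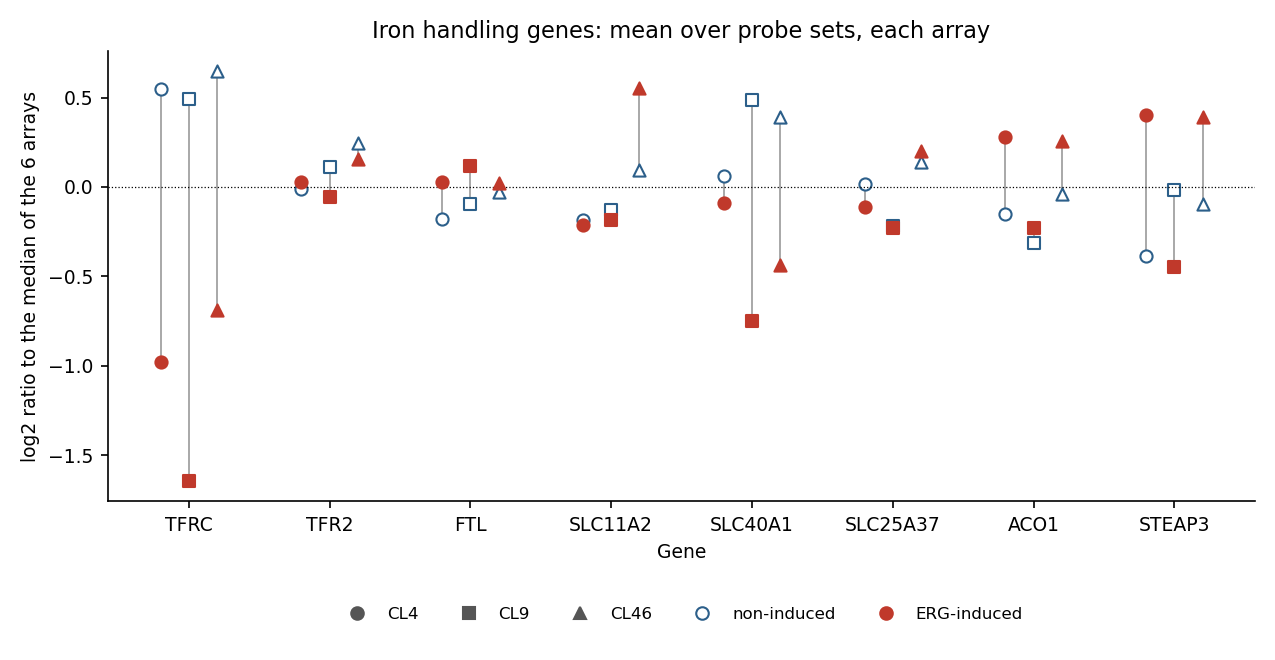
Log2 ratio of the 8 iron handling genes, each the mean over its probe sets, on each of the 6 arrays. Open symbols are non-induced and filled symbols ERG-induced arrays, and the shapes are the clones. TFRC is split from 0.49 or more to -0.69 or less, SLC40A1 and FTL are apart by less, and in the other 5 genes the groups overlap.

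Ordered by the log2 difference of the gene mean, the members ran from TFRC (-1.67) through SLC40A1 (-0.74), TFR2 (-0.07), SLC25A37 (-0.03), SLC11A2 (0.12), FTL (0.16) and ACO1 (0.27) to STEAP3 (0.28). From TFR2 to STEAP3 neighbours differed by less than their SE, which lay between 0.22 and 0.33. At the study's thresholds 1 gene of 8, TFRC, was lower and 0 were higher, where 6.32% of all genes were lower and 3.12% higher. The median over the 31 probe sets was 0.05, against -0.09 over all probe sets tested, and the 26 probe sets outside TFRC had a median of 0.12 with a range from -1.04 to 0.68. Of these 26, 6 were lower and 8 higher in all 3 clones, where 24.3% of all probe sets were lower and 16.5% higher in all 3.

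**Figure D3:**
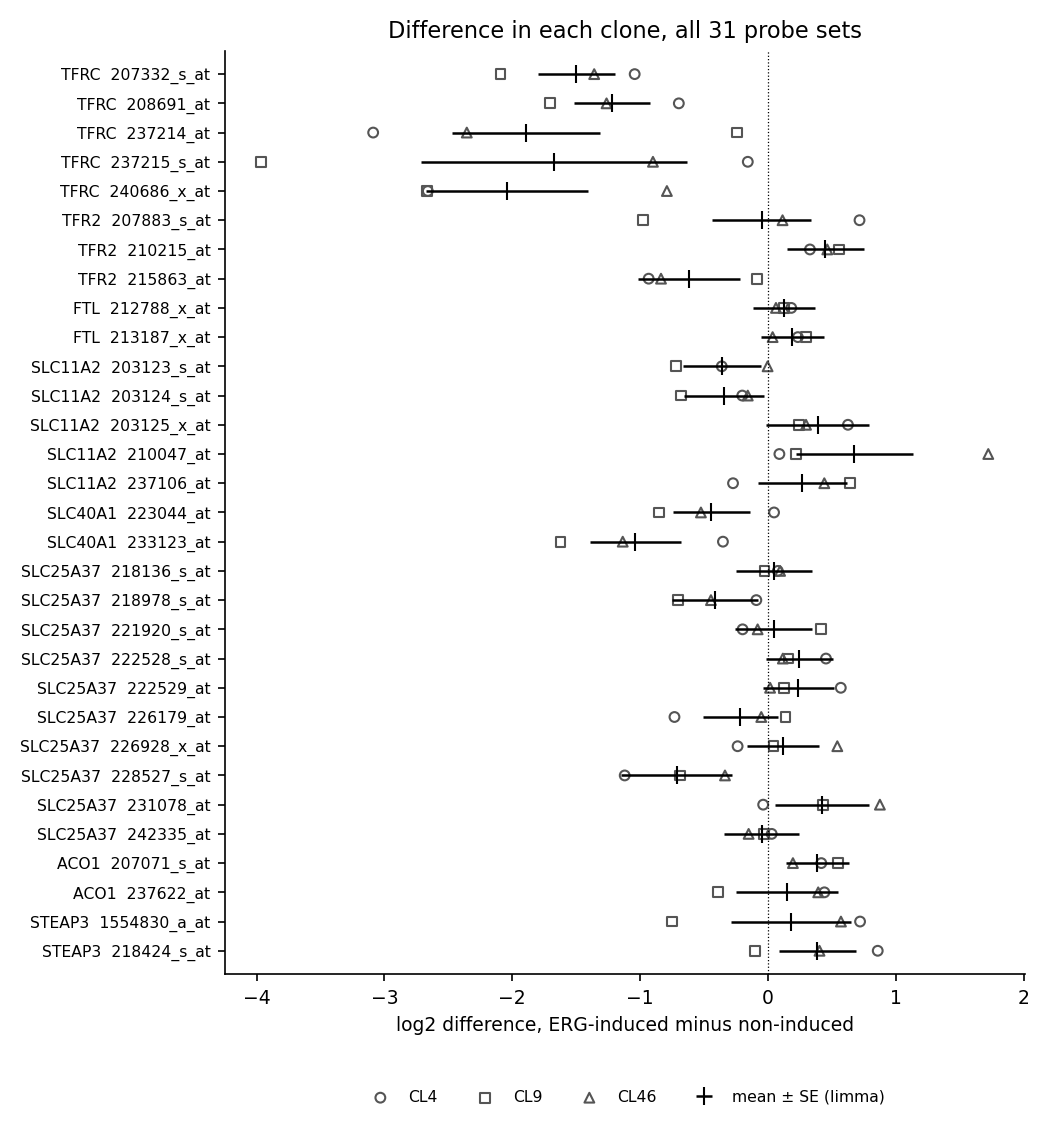
Log2 difference, ERG-induced minus non-induced, of all 31 probe sets of the 8 genes. Open symbols are the clones CL4, CL9 and CL46 and black lines give the limma estimate ± SE. The 5 TFRC probe sets lie wholly below 0, the lowest clone value being -3.96, while of the other 26, 6 lie wholly below 0 and 8 wholly above it.

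Whether the clones themselves differed in these genes, whatever the treatment, was a question the choice of the list did not use. The mean of the 2 arrays of a clone was compared across the 3 clones with a moderated F test in limma, with treatment as a term. By this test 0 of the 31 probe sets differed between clones at an adjusted p of 0.05, and 0 at an unadjusted p under 0.05, where 0% and 6.76% of all probe sets did. The smallest p belonged to SLC11A2 203125_x_at (adjusted p = 0.826), with clone means of -0.24, -0.20 and 0.58 in CL4, CL9 and CL46. In the gene means, TFRC had -0.21, -0.58 and -0.02 (adjusted p = 0.804) and SLC11A2 -0.20, -0.16 and 0.33 (adjusted p = 0.794). FTL had the narrowest range of clone means, 0.09. With 2 arrays per clone the test is weak, and a difference between clones that it misses may exist.

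Beyond the members, 48 other genes of iron handling were listed from general knowledge, and 44 were measured. At the study's thresholds 2 rose and 2 fell, where 3.12% of all genes rose and 6.32% fell, and these 2 counts of 44 are no result about the list. By limma 0 passed an adjusted p of 0.05, and 6 had an unadjusted p under 0.05. Their median log2 difference was 0.07, against -0.03 over all genes. LTF, the iron-binding protein lactoferrin of neutrophil granules, fell by 2.46 (log2 scale, SE 0.45, with an adjusted p of 0.192 in limma), from 0.54, 1.46 and 0.58 in the non-induced to -1.76, -2.15 and -0.88 in the induced arrays of CL4, CL9 and CL46. LTF was read by 1 probe set, and its groups lay apart, as 15.1% of all probe sets did with the induced arrays below. Since that probe set ends in _s_at, LTF has no value without such probe sets.
EXOC6, an exocyst subunit that takes part in the recycling of transferrin receptor in red cell precursors, fell by 1.51 (SE 0.37, adjusted p = 0.236 in limma). All 3 of its probe sets had the induced arrays below the non-induced ones, as 15.1% of all probe sets had. Probe set 232599_at gave -3.41 and the others -0.66 and -0.45, so that the call rested on 1 probe set. It was lost without CL46 (-1.18), with the median over probe sets (-0.80) and without probe sets whose median lay below 1 (-0.56).
TMPRSS6, a protease that holds back hepcidin, rose by 1.06 (SE 0.23, adjusted p = 0.209 in limma), with 1.13, 1.13 and 0.91 in the clones. Its 3 probe sets gave -0.23, 1.80 and 1.60, and none was called alone, so the even clone values come from averaging uneven probe sets. The call was lost with the median over probe sets (0.80), without probe sets of median below 1 (0.69) and without probe sets ending in _x_at or _s_at (0.79).
SLC25A28, mitoferrin 2, the mitochondrial iron importer of cells in general, rose by 1.19 (SE 0.37, adjusted p = 0.301 in limma). Probe set 1560705_at alone carried the rise (3.33), with 0.07 and 0.16 in the other two, and the median over probe sets was 0.35. Without CL4 (0.93) or CL9 (1.22) the call was lost.

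Other genes of the list that are known to act on iron or on the members did not reach the thresholds and lay on both sides of 0. Of the 44, 10 were lower and 9 higher in all 3 clones. Over all probe sets the shares were 24.3% and 16.5%, and those over genes were not computed, so nothing is read from these counts. Those named here were chosen after their values were seen. FBXL5, which marks the iron regulatory protein of IREB2 for degradation, differed by -0.43 in CL4, -0.93 in CL9 and -0.86 in CL46. Its mean was -0.74 (SE 0.30, adjusted p = 0.389 in limma). Both of its probe sets had the induced arrays below the non-induced ones, as 15.1% of all probe sets had. FLVCR1, a heme exporter, differed by -0.54, -1.31 and -1.13 (mean -0.99, SE 0.29, adjusted p = 0.285), just short of the fold threshold, and was past it without CL4. HMOX1, which breaks down heme and frees its iron, differed by -1.24, -2.80 and 0.64, with CL46 on the other side, and was called lower without CL46. NCOA4, the receptor that delivers ferritin for breakdown, differed by -0.28 (SE 0.27), and TF, transferrin itself, by -0.70 (SE 0.35, adjusted p = 0.469). On the other side of 0 lay PCBP1 and PCBP2, chaperones that deliver iron to ferritin, with 0.30 (SE 0.26) and 0.27 (SE 0.27) and all 3 clones higher in each. HFE, which binds the transferrin receptor, gave 0.76 (SE 0.67) and CP, the ferroxidase ceruloplasmin, 0.33 (SE 0.88), both with clones on either side of 0.

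**Figure D4:**
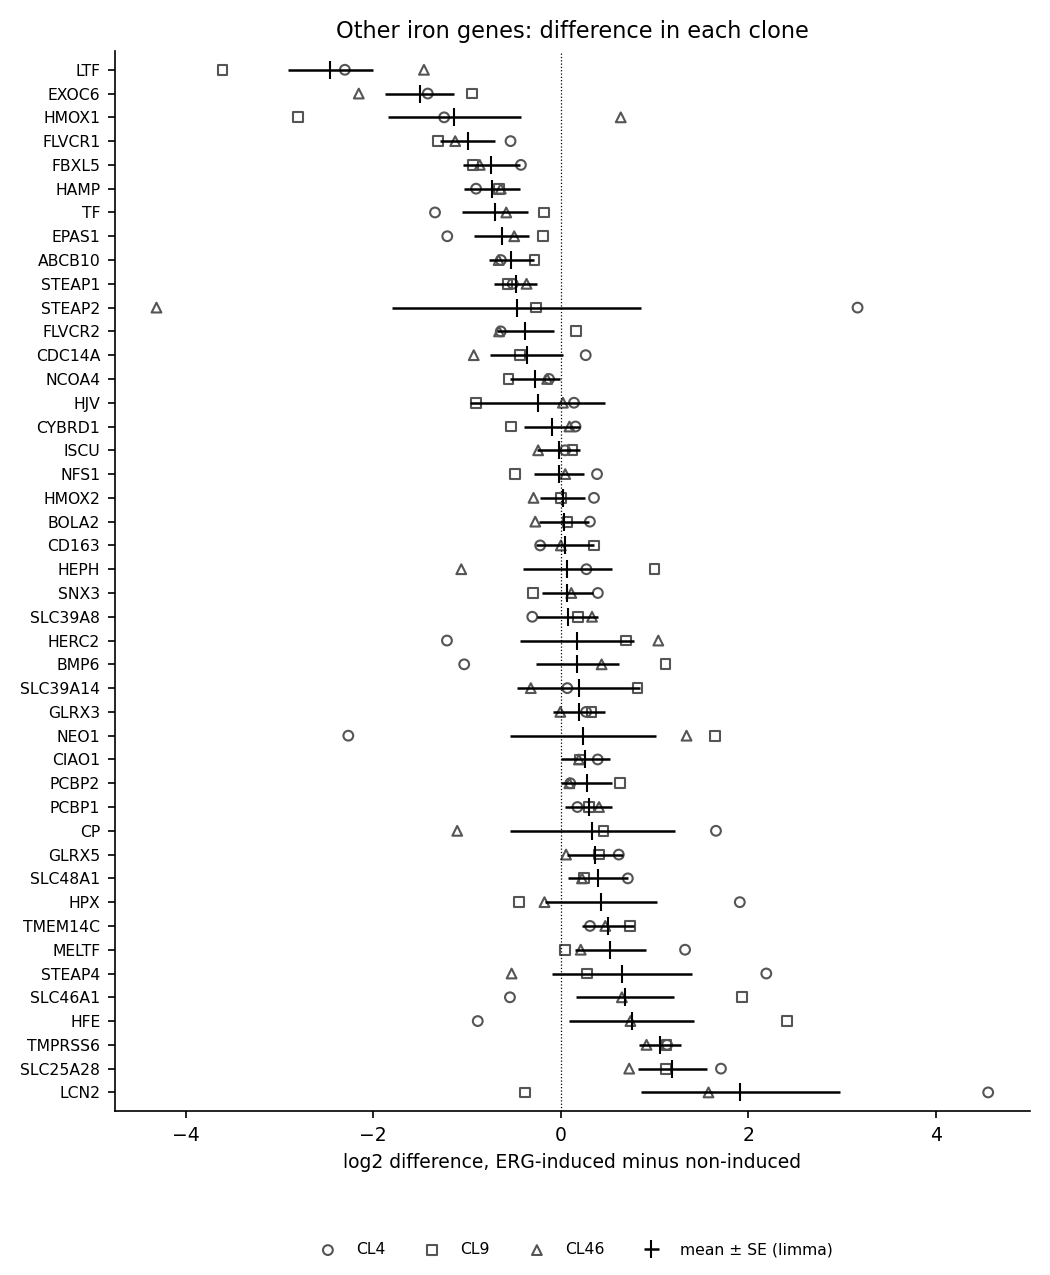
Log2 difference, ERG-induced minus non-induced, of the 44 other iron genes measured, ordered from the lowest mean at the top. Open symbols are the clones and black lines give the limma estimate ± SE. LTF and EXOC6 lie below 0 and TMPRSS6 and SLC25A28 above 0 in all 3 clones, while LCN2, STEAP2 and NEO1 spread widely between clones.

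By Pearson correlation over the 6 arrays, the genes with a pattern most like that of TFRC were C5orf34 (r = 0.999), PRPF39 (0.998), TRAPPC8, AFTPH and MPHOSPH9 (0.997 each). The correlation describes 6 arrays that fall into the 2 conditions, and the genes were picked as the highest of 19775. Each was lower in all 3 clones and most in CL9. For C5orf34 the differences of CL4, CL9 and CL46 were -1.32, -1.67 and -1.15, and for AFTPH -0.68, -1.08 and -0.66. Among the members, SLC40A1 had r = 0.894 with TFRC and FTL -0.87, and the others lay between -0.32 and 0.54.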

How the data were processed

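RNA of 3 K562 pTRE-ERG clones, each with and without DOX, was measured by the authors on 6 Affymetrix arrays (U133 Plus 2.0) and processed with GeneSpring. The deposited values are linear ratios. For 50737 of 54675 probe sets the median of the 6 values is 1 within 1e-05, as after division by that median, and for 3938 it is lower, which division by that median does not describe. How background and scale were treated earlier is not given in the sources used, signal over background is unknown, and the number of arrays limits the precision. The ratios ran from 0.00357 to 154 and were turned to log2 without a floor. No value column was without a sample (0 columns).

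Left out were 62 control probe sets. Of the others, 41091 carried 1 gene symbol, 1801 several and 11721 none. Symbols were updated by gene ID to RefSeq genes of GRCh38.p14, which all 8 members matched, and gene values are means over probe sets. The groups were compared over all probe sets or genes with limma 3.58.1 in R 4.3.3 (lmFit and eBayes without intensity trend, two-sided, Benjamini-Hochberg adjustment). Calls used the study's thresholds, 2-fold or beyond with p under 0.05, unadjusted for multiple testing. Clones were compared with a moderated F test. The fits were tested on simulated data.

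The members, lists and rules were chosen with earlier results of these data known. The text names all members, every gene of a list past the thresholds (at most 6 per list), ERG and the 5 genes most correlated with TFRC. Alternatives were the clone as a block, other scalings, thresholds, probe set summaries and leaving out each clone. The clone number pairs the arrays, as they come from the same clone. Once group means were removed, the 2 arrays of a clone correlated across probe sets by 0.03 in CL4, 0.02 in CL9 and 0.03 in CL46. Promoter sequences are those of RefSeq, with TFR2 not in the table and SLC25A37 not shown.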

Additional observations from a re-analysis of the deposited data

Results flagged for a closer look

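In 4 member genes the clones stood on opposite sides of 0, and with 1 pair of arrays per clone the difference between clones was not tested. STEAP3 ran from -0.43 in CL9 to 0.79 in CL4, SLC11A2 from -0.060 in CL9 to 0.46 in CL46, TFR2 from -0.17 in CL9 to 0.037 in CL4 and SLC25A37 from -0.13 in CL4 to 0.058 in CL46, all as log2 differences of the gene mean.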

How the results depend on the processing

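The TFRC gene mean, which the choice of the list used, ran from -1.83 to -1.29 over 10 other fits and 1 chosen after seeing the data, the mean of its 2 steadiest probe sets (-1.36). It met the unadjusted thresholds in all of these. An adjusted p under 0.05 was asked for only in the fit used throughout the text, where TFRC did not reach it in limma. The count of lower member probe sets, 5, became 3 with the clone as a block, 0 at an adjusted p under 0.05 in limma, and 2 to 3 with 1 clone left out. The count of lower member genes, 1, became 0 at an adjusted p under 0.05 (2 at an unadjusted p), 2 at a fold of 1.5, and 1 to 2 with 1 clone left out (2 without CL4, which adds SLC40A1). The other iron genes, 2 higher and 2 lower, became 0 and 1 with the median over probe sets, 1 and 1 without probe sets ending in _x_at or _s_at, 1 and 1 without probe sets of median below 1, and 0 and 0 at an adjusted p under 0.05. At a fold of 1.5, 4 were lower, and with 1 clone left out 2 to 3 were lower (3 without CL4, which adds FLVCR1) and 1 (without CL9) to 2 were higher. Without CL4 the 2 higher were TMPRSS6 and NEO1, with NEO1 in the place of SLC25A28. The clone as a block changed no call of a member gene or of the other iron genes, and the clone test gave 0 calls in all 7 alternatives. FTL has no value without probe sets ending in _x_at or _s_at, as both of its probe sets do, and LTF has none either. Fewer arrays and probe sets enter these fits, and otherwise the cause was not tested. The ratios hold no brightness, so which of these probe sets lie near background is unknown.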
